A study of Homo sapiens with 8 samples.

Results

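HUES64 is an established line of human embryonic stem cells, and the derivative measured here carries the genotype label DNMT1 knockout. Its cells were kept by DNMT1*, an exogenous and repressible copy of the enzyme. DNA was taken at 8 time points, day 0 to day 7 of the withdrawal of DNMT1*. The comparison here is between the library of day 6 and the library of day 7, so both groups share the cell line, the genotype and the withdrawal and differ by 1 day. Each day is 1 library from 1 course, with no replicate, so all values are given without a test and no difference has a replicate check. The labels do not say how the line was cloned or whether cultures were pooled, and methylation calls hold no measure of DNMT1 or DNMT1* itself.

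DNMT1 copies CpG methylation onto the newly made DNA strand after replication. Without it, methylation is diluted as cells divide, while the de novo methyltransferases, which embryonic stem cells express, can still add methyl groups. Reduced representation bisulfite sequencing (RRBS) reads CpGs close to MspI cut sites, which favours CpG islands and promoters. The level of a CpG is the share of its bisulfite reads that were called methylated.

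The members are the autosomal CpGs with 20 or more reads on both days. They number 2413014, which is 78.2% of the 3084073 autosomal CpGs listed in any of the 5 deeply sequenced libraries. The median member had 45 reads on day 6 and 44 on day 7, and the depths of the 2 days correlated across CpGs with r = 0.97. Both days had the same methylated and the same total reads at 1.23% of the members. Windows are fixed 1-kb stretches of the genome that hold 3 or more members, and there were 259837 of them, with a median of 5 CpGs and 267 CpG read calls on day 6.

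What was left on each day was small and had fallen further by day 7. The mean level over CpGs was 13.7% on day 6 and 11.5% on day 7, a loss of 2.19 points, with 95% counting intervals of ± 0.00641 points on day 6 and ± 0.00614 on day 7. Day 7 therefore held 84.0% of the day 6 level (95% counting interval 83.9 to 84.1%). Over windows, the means were 17% and 14.4%, with 84.4% left (84.3 to 84.4%). Counted over reads, 17512042 of 128288344 day 6 calls were methylated and 14386275 of 127714121 day 7 calls. These intervals cover counting error only, because RRBS reads carry no molecular identifiers and several CpGs share a read.

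The sequences of 4 promoters are shown first because they carry the contrast at single genes. In DAZL and RNF17 the level summed over CpGs differed little between the days, though single CpGs of each went both ways. SYCP3 and SOHLH2 were among the 5 largest falls of methylated promoters. Each sequence is the 250 bases before the gene start from RefSeq (GRCh38.p14), 5′ to 3′ on the gene's strand, and capitals mark the CpGs that are members.
DAZL (chr3:16605424-16605673, minus strand): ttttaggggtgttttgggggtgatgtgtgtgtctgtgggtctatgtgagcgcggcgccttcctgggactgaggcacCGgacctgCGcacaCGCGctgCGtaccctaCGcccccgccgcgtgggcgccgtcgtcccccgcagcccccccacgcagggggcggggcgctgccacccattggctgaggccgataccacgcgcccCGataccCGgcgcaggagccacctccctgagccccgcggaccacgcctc
RNF17 (chr13:24763919-24764168, plus strand): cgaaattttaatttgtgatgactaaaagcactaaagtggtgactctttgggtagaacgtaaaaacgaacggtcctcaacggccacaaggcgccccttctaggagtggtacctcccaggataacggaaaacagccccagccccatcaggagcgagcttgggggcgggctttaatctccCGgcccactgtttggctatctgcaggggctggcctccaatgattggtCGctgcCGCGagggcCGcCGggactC
SYCP3 (chr12:101739463-101739712, minus strand): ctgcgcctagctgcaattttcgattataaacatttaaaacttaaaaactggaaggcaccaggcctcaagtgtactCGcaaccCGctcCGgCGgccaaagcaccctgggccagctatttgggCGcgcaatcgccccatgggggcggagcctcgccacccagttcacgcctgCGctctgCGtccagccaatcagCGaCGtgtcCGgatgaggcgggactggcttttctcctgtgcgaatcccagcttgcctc
SOHLH2 (chr13:36214557-36214806, minus strand): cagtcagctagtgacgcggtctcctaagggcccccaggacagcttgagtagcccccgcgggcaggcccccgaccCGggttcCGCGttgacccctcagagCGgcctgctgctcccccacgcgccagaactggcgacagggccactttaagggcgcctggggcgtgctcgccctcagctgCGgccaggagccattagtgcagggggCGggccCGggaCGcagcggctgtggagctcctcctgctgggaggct
All 4 belong to germ cell genes. DAZL is an RNA-binding protein of germ cells, RNF17 a Tudor domain protein of male germ cells, SYCP3 a component of the synaptonemal complex that aligns chromosomes in meiosis, and SOHLH2 a transcription factor of early germ cell differentiation. Their measured CpGs stood at 88.1 to 95.2% on day 0, and their day 6 and day 7 values are given further on.

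Residual methylation was spread over many of the CpGs that RRBS reached. With 20 reads drawn per CpG and day, 31.9% of CpGs had no methylated read on day 6 and 33.6% on day 7, although 0 of 20 reads still allows a level of up to 15%. The classes over 10 to 20% and over 20 to 30% held 23.9% and 15.6% of CpGs on day 6, against 24.1% and 11.9% on day 7. The share of CpGs over 20% went from 24.7% to 17.2%, and the share over 50% from 0.818% to 0.454%. At the top of the scale, 211 CpGs were over 80% on day 6 and 130 on day 7. The 10% of CpGs with the highest levels held 29.4% of the residual methylation of day 6 and 31.1% of that of day 7.

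In windows, where more reads are summed, 2 separate populations could be seen. One lay close to 0, with 12.8% of windows at 5% or less on day 6 and 13.5% on day 7. The other formed a single broad hump around a median of 18.1% on day 6 and 15.1% on day 7 over all windows. From day 6 to day 7 the hump moved down as a whole: windows over 20% went from 37.5% to 19.1%, and windows over 10 to 20% rose in number from 116651 to 151621. Few windows were high. Only 72 were over 50% on day 6 and 28 on day 7, and 0 were over 80% on either day.

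**Figure D1:**
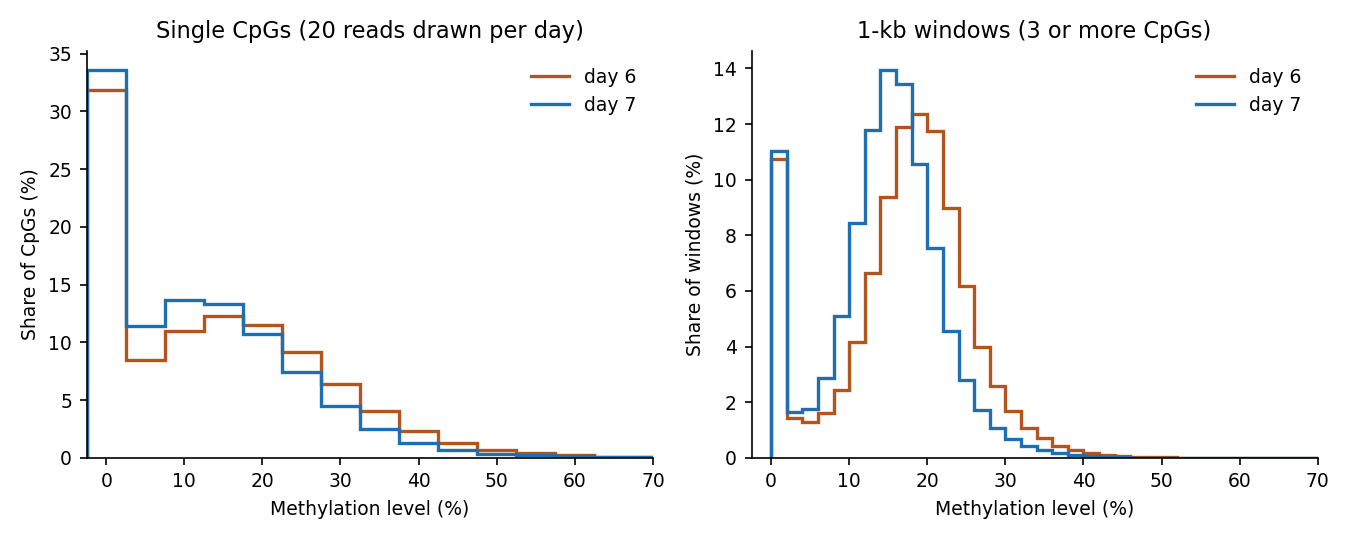
Share of CpGs (left, 20 reads drawn per CpG and day) and of 1-kb windows (right) at each methylation level on day 6 and day 7, 1 library per day, with axes ending at 70%. The peak at 0 stays while the broad hump shifts to lower levels, and windows over 20% go from 37.5% to 19.1%.

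The residual level followed the level before withdrawal. Of the CpGs with 20 or more reads on day 0, the 1046676 at 80% or more on that day held 70.8% of the day 6 methylation and 70.4% of the day 7 methylation while making up 44% of the CpGs. Their mean was 22.0% on day 6 and 18.4% on day 7, so 83.6% was left. The 602441 CpGs between 20% and 80% on day 0 stood at 15.3% and 13%, with 85.0% left. The 730837 CpGs at 20% or less stood at 0.378% and 0.335%, with 88.6% left (87.0 to 90.2%). Of these, the 598922 CpGs with no methylated read on day 0 gave 0.129% on day 6 and 0.119% on day 7. The conversion rate of the libraries is not given in the sources used here.

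Among the 117239 windows at 80% or more on day 0, no large set had been emptied and no large set had been spared. The middle 90% of them lay between 12.7% and 32.8% on day 6 and between 10.2% and 28.7% on day 7. Only 65 were under 5% on day 6 and 232 on day 7. At the other end, the highest of day 6 stood at 66.7% and the highest of day 7, a different window, at 66.2%. The former lay in the 2-point cell from 34% on day 7, and the latter had 54.0% on day 6.

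Which level ranges were stable between the days depended on which reads set the range. A range counts as stable here when 90 to 110% of its day 6 level was left on day 7. If the same day 6 reads set the range and give the level, CpGs that were high by counting error alone fall back, so the reads of each CpG were split at random into 2 parts, with 1 part setting the range and the other giving the level. With ranges set by a part of the day 6 reads, CpGs at 0% in that part averaged 1.31% in the other part and 1.18% on day 7, with 90.4% left. The share left was 88.1% in the range over 0 to 5%, 84.0% over 10 to 20%, 83.0% over 20 to 30%, 83.0% over 30 to 50% and 85.6% over 50 to 80%. The 436 CpGs over 80% averaged 65% in the other part and 57.7% on day 7, with 88.7% left (86.8 to 90.6%). Only the lowest range was in the stable band in this setting.

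Setting the ranges by a part of the day 7 reads gave a different course. The share left, which was lowest between 20% and 50% with the day 6 reads, then rose throughout, from 79.8% in the range at 0% to 83.0% over 10 to 20%, 85.1% over 20 to 30%, 88.8% over 30 to 50% and 95.8% over 50 to 80%. The 263 CpGs over 80% averaged 62.8% on day 6 and 62.7% in the other part of day 7, with 99.9% left (97.2 to 102.6%). Duplicate reads of 1 molecule can fall in both parts of a split, and their part in these values was not tested.

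Ranges set by a library of another day use reads of neither compared day. With the day 2 library, the share left was 91.8% (87.4 to 96.2%) for CpGs at 0% on day 2, 87.5% over 0 to 5%, 86.2% over 10 to 20%, 85.5% over 30 to 50%, 83.9% over 50 to 80% and 83.5% over 80%. With the day 0 library, the values ran from 92.8% (87.9 to 97.7%) at 0% to 83.6% over 80%. Over these 4 ways of setting ranges, the lowest range was stable in 3, though its intervals reached below 90% in all 3. With ranges from day 2 it averaged only 0.141% on day 6 and 0.130% on day 7. The part of unconverted or miscalled reads in levels this low was not tested. The ranges over 50 to 80% and over 80% were stable in 1 of 4, the one set by day 7 itself, and the 5 ranges between 0 and 50% in 0 of 4. No range above 0% was stable in more than 1 way.

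**Figure D2:**
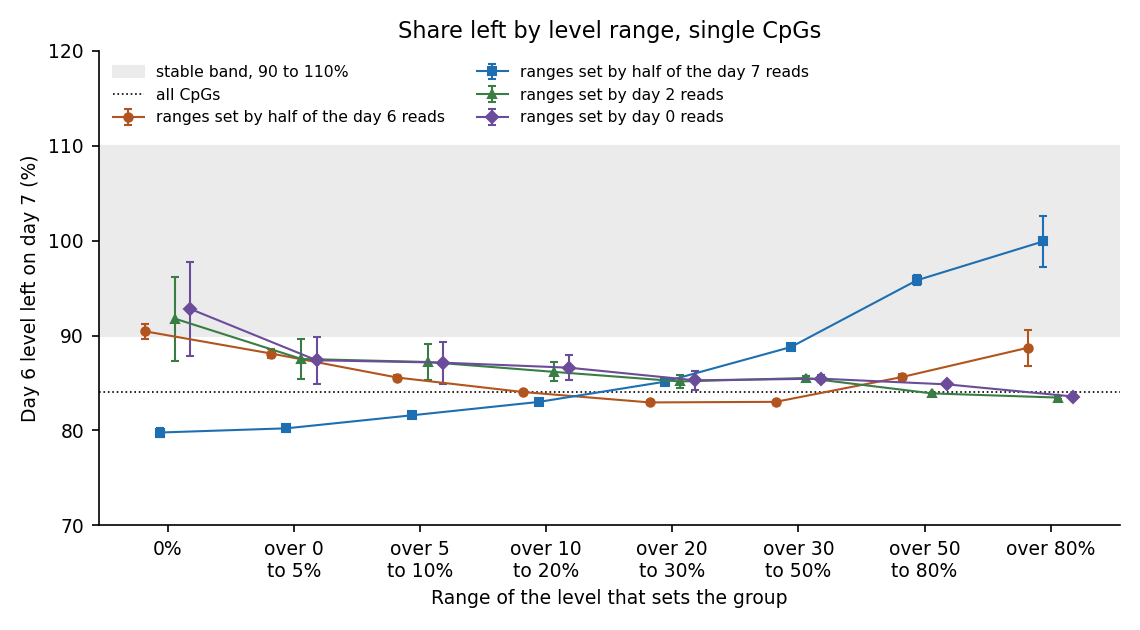
Percent of the day 6 level left on day 7 (vertical axis, from 70%) for CpGs grouped by level range (horizontal axis), with ranges set by a part of the day 6 or day 7 reads or by the day 2 or day 0 library, bars being 95% counting intervals. The curves set by day 6 and day 7 part at the high end, at 88.7% and 99.9% over 80%, while the day 2 and day 0 curves stay between 83.5% and 92.8%.

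In windows, the ways of setting ranges differed more. With ranges from the day 2 library, windows at 0% had 92.3% left (83.4 to 101.1%), and windows over 0 to 5%, over 10 to 20%, over 30 to 50%, over 50 to 80% and over 80% had 87.8%, 86.3%, 85.0%, 84.3% and 84.4% of their day 6 level left. The 8630 windows over 80% on day 2 averaged 26.6% on day 6 and 22.4% on day 7. Ranges from a part of the day 6 reads gave 112.9% (105.7 to 120.1%) at 0%, 95.1% over 0 to 5%, 93.4% over 5 to 10% and 80.8% over 50 to 80%. Ranges from a part of the day 7 reads gave 69.1% at 0%, 74.8% over 0 to 5%, 95.2% over 30 to 50% and 104.7% (99.4 to 109.9%) over 50 to 80%. The range at 0% was thus stable in 2 of 4 ways, those set by day 2 and day 0. Over 0 to 5%, 5 to 10%, 30 to 50% and 50 to 80% windows were stable in 1 of 4, and over 10 to 20% and 20 to 30% in 0 of 4. In windows the parts share fragments by construction, since the reads were split at each CpG separately and 1 fragment covers several CpGs.

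The order of sites, as read, was alike only in part between the 2 days. Levels on the 2 days correlated across CpGs with r = 0.79 and across windows with r = 0.83, but these values mainly separate the population near 0 from the rest. Among the CpGs at 80% or more on day 0, r was 0.55. Of the CpGs in the highest 10% on day 6, 46% were also in the highest 10% on day 7. Counting error lowers r and this overlap even where the order of sites is unchanged, and its part was not tested. All of these are descriptions across sites that share 2 libraries.

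Single windows departed from the common loss by more than their counting error. If every window had kept the mean share of 84.4%, the squared departures would average the counting variance, and they were 1.57 times that. The ratio rose with depth, from 1.48 in the 91647 windows under 200 reads to 2.04 in the 54843 windows with 500 to 2000 reads and 3.37 in the 7313 windows above that. Reads that share fragments raise this ratio too, and their part was not tested. The day 7 level was above the day 6 level in 26.5% of all windows and in 22.8% of the 117239 windows at 80% or more on day 0. In 3.54% of the latter the day 7 level was at or below 50% of the day 6 level.

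**Figure D3:**
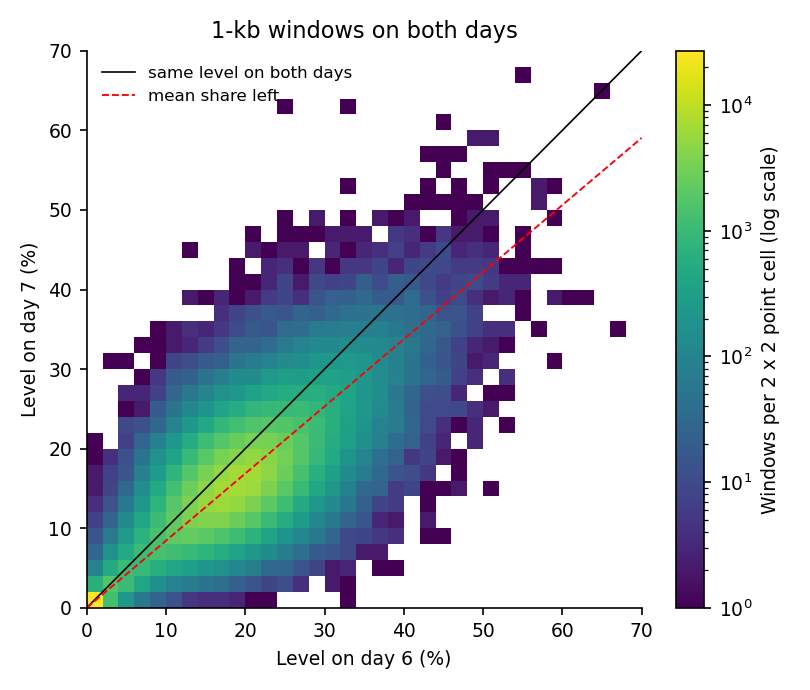
Number of 1-kb windows (colour, log scale) at each level on day 6 (horizontal axis, %) and day 7 (vertical axis, %), in cells of 2 by 2 points. Most windows lie along the dashed line of the mean share left, 84.4%, below the solid line of equal levels.

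The 5 windows with the highest level over both days had few reads. Ranking by the pooled reads of both days favours windows that were high on both. The highest, chr7:104718001-104719000 (hg19, as are all positions of windows and CpGs), had 56 of 87 calls methylated on day 6 (64.4%, Wilson 95% interval 53.9 to 73.6%) and 51 of 78 on day 7 (65.4%, 54.3 to 75%). Its 3 CpGs stood at 95.1% on day 0. The others were chr11:114025001-114026000 with 54.0% and 66.2%, chr11:118469001-118470000 with 57.9% and 52.4%, chr7:73112001-73113000 with 58.2% and 53.9%, and chr19:50123001-50124000 with 57.4% and 53.2%. In each of the 5 windows the intervals of the 2 days overlapped. In all, 5923 windows stood at 30% or more over both days and 27 at 50% or more, and the median of those 27 was 136 calls on day 6 against 267 over all windows. The genes in these windows are not named, since no hg19 annotation was used here.

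Among the 23010 windows with 1000 or more calls on each day, 183 stood at 30% or more and 1 at 50% or more. That one, chr16:25999001-26000000, had 54.7% on day 6 (52.1 to 57.3%) and 54.4% on day 7 (52.3 to 56.5%). Its level rests on a single CpG, since the other 5 CpGs stood at 23.8% and 20.1%. The next deep windows were chr22:50719001-50720000 with 46.9% on day 6 and 39.2% on day 7, chr3:174416001-174417000 with 43.4% and 40.2%, chr19:1034001-1035000 with 45.4% and 37.0%, and chr10:100945001-100946000 with 40.6% and 39.4%. Of the 6052 deep windows at 80% or more on day 0, 341 were higher on day 7 than on day 6. At all depths, 22.8% of the windows at 80% or more on day 0 were higher. The middle 90% of the 6052 deep windows kept between 64.3% and 101.1% of their day 6 level, around a median of 80.9%.

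The windows with the largest changes in points were also thinly covered, with a median of 93.5 calls on day 6. They were chosen for their change and have no test. The largest fall was at chr10:1454001-1455000, from 87 of 191 calls (45.5%, 38.6 to 52.6%) to 13 of 156 (8.33%, 4.93 to 13.7%) over 6 CpGs. The others, each with 3 CpGs, were chr12:112949001-112950000 from 51.4% to 15.6%, chr5:538001-539000 from 39.4% to 4.55%, chr19:3939001-3940000 from 43.7% to 9.09% and chr6:7778001-7779000 from 29 of 87 calls to 0 of 88. The largest rise was at chr7:5962001-5963000, from 17 of 68 calls (25%, 16.2 to 36.4%) to 42 of 67 (62.7%, 50.7 to 73.3%). The next 4 rises were chr9:94089001-94090000 from 12.1% to 45%, chr15:67211001-67212000 from 33% to 63.3%, chr22:32439001-32440000 from 2.70% to 30.3% and chr19:42971001-42972000 from 12.7% to 39.3%. All 10 of these windows stood at 80% or more on day 0, the lowest at 82.4% (chr19:42971001-42972000) and the highest at 97.2% (chr19:3939001-3940000).

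Of the 5923 windows at 30% or more, the 5 with the smallest change had exactly the same level on both days. The best covered of them, chr12:133397001-133398000, had 122 of 366 calls methylated on day 6 and 146 of 438 on day 7, 33.3% each. The others were chr1:179311001-179312000 at 36.4%, and chr4:186948001-186949000, chr10:30954001-30955000 and chr10:71883001-71884000 at 33.3%. Their counts leave wide intervals, such as 25.1 to 42.8% on day 6 at chr10:71883001-71884000.

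A few single CpGs read over 80% methylated on both days. With all reads, 166 CpGs were over 80% on day 6 and 106 on day 7, and 34 were over 80% on both days, or 20.5% of the day 6 set. These 34 lay on 12 chromosomes, were at 85.0% or more on day 0 and 80% or more on day 2, and only 3 had 100 or more reads on both days. The deepest was chr16:25999190, with 569 of 591 reads methylated on day 6 (96.3%, 94.4 to 97.5%) and 913 of 945 on day 7 (96.6%, 95.3 to 97.6%), after 97.0% on day 0 and 97.1% on day 2. The second was chr10:134423211, with 209 of 232 reads (90.1%, 85.6 to 93.3%) and 342 of 363 (94.2%, 91.3 to 96.2%). The third was chr6:4839170, with 93 of 112 (83.0%, 75 to 88.9%) and 131 of 156 (84.0%, 77.4 to 88.9%). Among the others, chr2:9695899 had 22 of 22 reads methylated on day 6 and 29 of 31 on day 7. The 6 members within 100 bases of it stood at 0.344% on day 0 and 0% on days 6 and 7. What gave such calls was not tested. The 34 CpGs were singled out after their values were seen.

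Their neighbours stood lower, which choosing the 34 for their high levels favours. The member CpG within 100 bases of chr16:25999190 averaged 26% on day 6 and 21.7% on day 7, the 5 near chr10:134423211 averaged 17.3% and 11.4%, and the 2 near chr6:4839170 averaged 19.5% and 18.0%. Of the 34 CpGs, 32 had members within 100 bases, whose median was 90.8% on day 0, 31.6% on day 6 and 33.3% on day 7. In 27 of the 32 the neighbours averaged under 50% on both days. That does not set them apart, since only 15146 of the 2413014 members were over 50% on day 6 and 8842 on day 7. The neighbours' medians did not fall by day 7. They were above the means of CpGs at 80% or more on day 0, which were 22.0% on day 6 and 18.4% on day 7. Not all neighbours were raised: those of chr10:134423211 and chr6:4839170 were below these means on both days.

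Beyond such single sites, nearby CpGs resembled each other over short distances within a library. Among the CpGs at 80% or more on day 0, levels of pairs 2 to 10 bases apart correlated with r = 0.54 on day 6 and 0.53 on day 7. For pairs 26 to 50 bases apart r was 0.24 on both days, for 51 to 100 bases 0.16 on both, and for pairs more than 1000 and up to 5000 bases apart 0.09 on both. When the first CpG was read on day 6 and the second on day 7, r was 0.31 at 2 to 10 bases, 0.18 at 26 to 50 and 0.16 at 51 to 100. Pairs this close can share reads, whose part was not tested, and beyond 50 bases the values within and between days differed by less than 0.01. A level of likeness of about 0.15 up to 1000 bases was therefore common to both days, while the same CpG on the 2 days gave 0.55. These are descriptions across pairs that share libraries.

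CpG density went with the share left. Among the CpGs at 80% or more on day 0, the share left was 85.0% (84.8 to 85.3%) in windows with 1 to 2 listed CpGs, 84.1% with 5 to 9, 83.3% with 10 to 19, 81.6% with 20 to 39, 79.9% (79.6 to 80.2%) with 40 to 79 and 79.3% (78.0 to 80.5%) with 80 or more. The day 6 levels of the same classes did not follow that order: they were 21.4%, 22.05%, 22.4%, 22.2%, 21.2% and 19.4%. Day 0 levels were alike, between 88.5% and 89.4%. Median depth went from 44 to 50.5 reads, and among CpGs with 30 to 45 reads on the shallower day, a setting added after values were seen, the share left still went from 84.6% with 1 to 2 listed CpGs to 80.1% with 40 to 79. The number of listed CpGs counts only CpGs that RRBS reached, so it understates the density of the genome. By distance to the nearest listed CpG, the share left was 82.7% at 2 bases, 83.6% at 9 to 16, 84.4% at 17 to 32, 83.2% at 33 to 64 and 85.3% over 100, so the order was not steady.

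**Figure D4:**
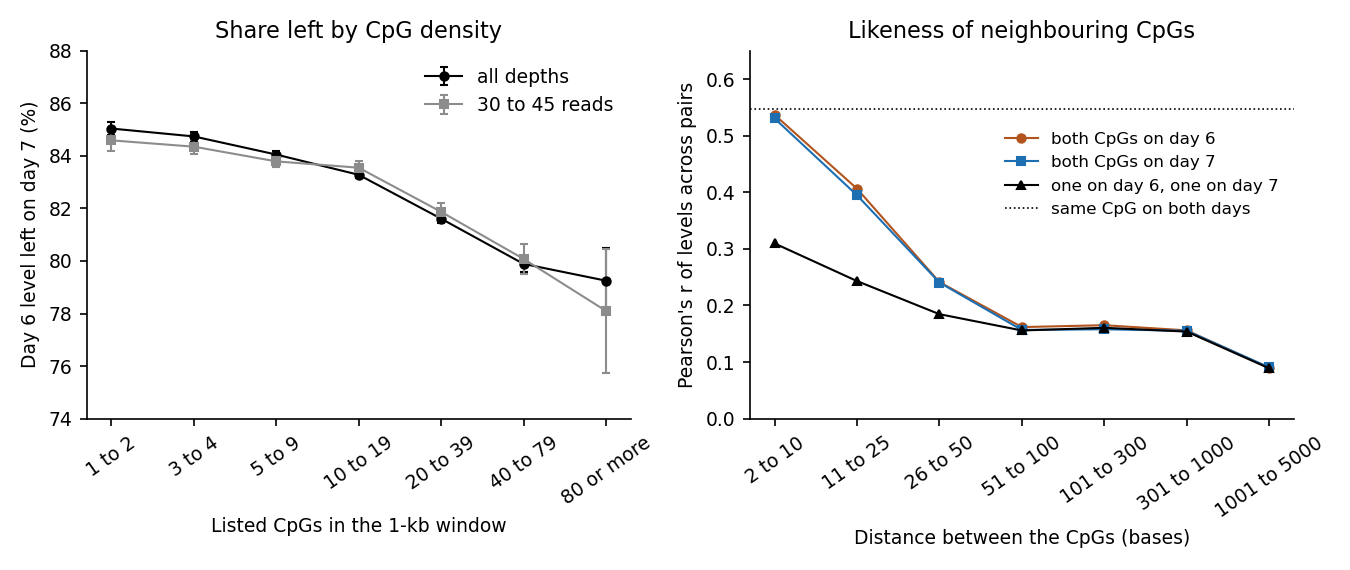
Left, percent of the day 6 level left on day 7 (axis from 74%) by the number of listed CpGs in the 1-kb window, for CpGs at 80% or more on day 0, at all depths and at 30 to 45 reads, with 95% counting intervals. It goes from 85.0% to 79.3% at all depths. Right, Pearson's r between the levels of 2 CpGs by their distance, within each day and between days, with the dotted line at 0.55 for the same CpG on both days.

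Promoters were placed on the files' CpG positions through the spacing of the CpGs in the RefSeq sequences, since the files are in hg19 and the sequences in GRCh38. This step and the genes named from it were added after values were seen. Of 21319 promoter sequences with 8 or more CpGs, 12620 were placed, and when all chromosomes were searched 99.8% of placements fell on the labelled chromosome. Autosomal promoters with 5 or more members among their 300 bases numbered 11269, from 9680 genes. A promoter level is the methylated share of its summed calls. Its Wilson interval counts each call as separate, so it is too narrow where CpGs share reads.

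Most promoters were near the floor before and after. The 10204 promoters at 2% or less on day 0 averaged 0.101% on day 6 and 0.0948% on day 7. The 168 promoters over 20 to 50% on day 0 averaged 6.66% and 5.73%, with 86.0% left, and the 145 over 50 to 80% averaged 12.1% and 10.5%, with 86.7% left. The 361 promoters over 80% on day 0 had a median of 17.5% on day 6 and 13.6% on day 7. By the ratio of their means, 80.1% was left (79 to 81.3%). They ranged from 3.08% to 38.2% on day 6 and from 4.22% to 38.3% on day 7. The day 7 level was above the day 6 level in 73 of the 361, or 20.2%.

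The highest promoter over both days was that of LOC100288123, with 107 of 280 calls methylated on day 6 (38.2%, 32.7 to 44%) and 108 of 282 on day 7 (38.3%, 32.8 to 44.1%). Next came LOC124903382 with 32.2% and 30.4% and LOC101929291 with 30.5% and 28.9%. The fourth was DAZL, with 63 of 230 calls on day 6 (27.4%, 22.0 to 33.5%) and 63 of 211 on day 7 (29.9%, 24.1 to 36.3%), after 95.2% on day 0 and 90.4% on day 2. RNF17 ranked 10 of 11269, with 102 of 379 (26.9%, 22.7 to 31.6%) and 118 of 449 (26.3%, 22.4 to 30.5%). For both genes the intervals of the 2 days overlapped over the summed calls, though single CpGs of each went both ways. The rank uses the pooled calls of both days, which favours promoters that were high on both.

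Other promoters ranked high over both days, and in each of ART3, NR5A1, IGFALS and AQP2 the intervals of the 2 days overlapped. ART3, a member of the ADP-ribosyltransferase family, had 26.7% and 26%. NR5A1, the nuclear receptor that directs steroidogenic gene expression, had 25% and 22.8%. IGFALS, a serum protein that binds insulin-like growth factor complexes, had 21.9% and 23.2%. AQP2, the vasopressin-regulated water channel of the kidney, had 29.9% (24.7 to 35.7%) and 21.1% (16.2 to 27.0%), and LAMA5-AS1, SLC7A5-AS1, REPIN1-AS1 and LRRK1-AS1, all antisense RNAs, stood between 24.9% and 31.4% on day 6 and between 23.6% and 26% on day 7. Of these, REPIN1-AS1 had intervals that did not overlap, with 30.4% (27.1 to 34%) and 23.6% (20.6 to 26.8%).

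SYCP3 and SOHLH2 had levels like these on day 6 and not on day 7. SYCP3 had 142 of 457 calls methylated on day 6 (31.1%, 27.0 to 35.5%) and 74 of 466 on day 7 (15.9%, 12.8 to 19.5%). SOHLH2 had 104 of 321 (32.4%, 27.5 to 37.7%) and 41 of 274 (15.0%, 11.2 to 19.7%). For neither gene did the intervals of the 2 days overlap, but CpGs that share reads make these intervals too narrow, so this is a description. The largest fall among promoters over 80% on day 0 was that of CERS3, a ceramide synthase, from 28.6% to 10.6%, and the others of the 5 largest were SOHLH2, PRSS50, a protease of the testis, from 23.3% to 7.19%, SYCP3, and SLC25A31, an ADP/ATP carrier of the testis, from 28.5% to 14.9%. The 5 largest rises were WNT16, a Wnt ligand, from 3.08% (1.63 to 5.75%) to 14.7% (10.9 to 19.4%), PARVB, an actin-binding parvin, from 4.37% to 12%, PKDREJ, a polycystin family member, from 8.64% to 15.8%, DPP6 from 17.5% to 24.5% and GALNT3, an O-glycosylation enzyme, from 12% to 16.7%. These were chosen for their change, so their values are a description.

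**Figure D5:**
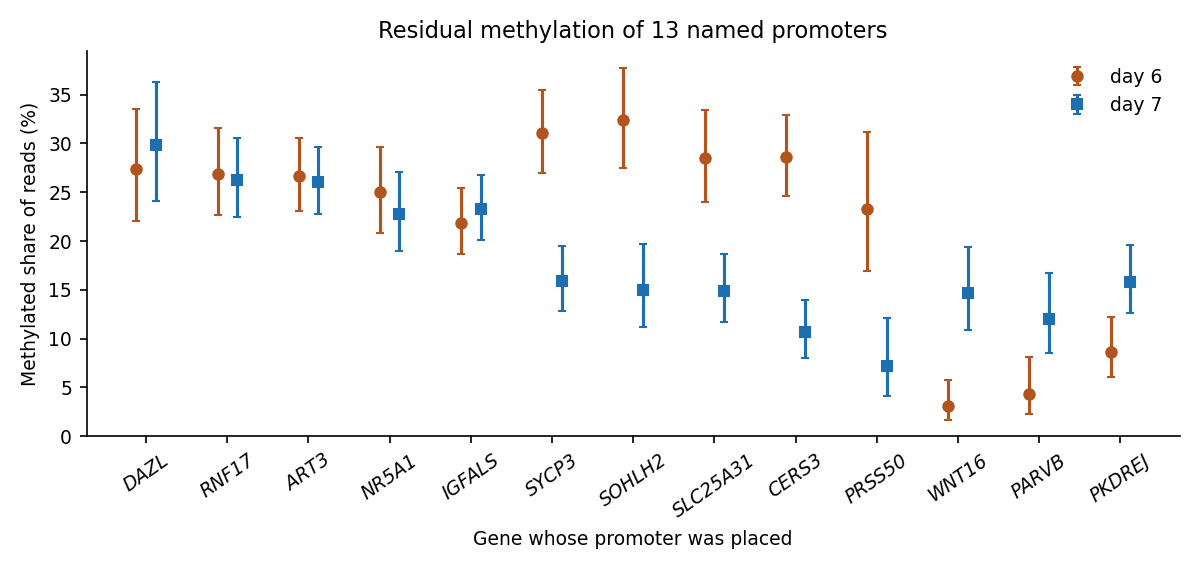
Methylated share of CpG calls (vertical axis, %) on day 6 and day 7 at 13 named promoters, with Wilson 95% intervals that cover counting error only. They count each call as separate and are too narrow where CpGs share reads. DAZL and RNF17 have overlapping intervals, SYCP3 and SOHLH2 fall from 31.1% and 32.4% to 15.9% and 15.0%, and WNT16 goes from 3.08% to 14.7%.

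Within the 4 promoters printed above, the CpGs differed. Read in the direction of the gene, the 8 CpGs of DAZL had 12.1%, 36.7%, 25%, 31%, 37.9%, 31.3%, 23.8% and 20.8% on day 6 and 20.7%, 56.0%, 31%, 44.4%, 40.7%, 40.7%, 0% and 0% on day 7. The first 6, which lie close together, were all higher on day 7, and the last 2, nearest the gene start, had 0 of 20 and 0 of 27 reads. The 10 CpGs of SYCP3 lay between 20.5% and 50% on day 6 and between 7.14% and 26.7% on day 7, and 10 of 10 were lower. The 8 CpGs of SOHLH2 were likewise lower in 8 of 8, with 13.3% to 48.9% on day 6 and 9.68% to 20.7% on day 7. In RNF17, 5 of 9 were lower, and 3 of the 4 that were higher lie at or past the end of the printed stretch. In WNT16 all 5 CpGs were higher on day 7, with 0 of 5 lower. SYCP3 and SOHLH2 are shown as large falls and WNT16 as the largest rise, so that choice favours counts in 1 direction. The share of all CpGs that were lower on day 7 was not counted. CpGs of 1 promoter share reads and are not replicates.

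Germ cell promoters were then read as lists, beside all promoters over 80% on day 0, whose medians were 17.5% and 13.6%. Of the 10 germ cell genes of the plan, DAZL, SYCP3 and STAG3 had a measured promoter, and the 2 of them over 80% on day 0, DAZL and SYCP3, had medians of 29.2% on day 6 and 22.9% on day 7. STAG3, a meiotic cohesin subunit, was near 0 on day 0 and had 0 of 775 calls on day 6 and 2 of 780 on day 7. Of 40 further germ cell genes, added after results were known, 16 had a measured promoter, and 12 promoters were over 80% on day 0. Those 12 had a median of 16% on day 6 and 12.8% on day 7, and 4 of 12 were higher on day 7, beside 20.2% of all promoters over 80% on day 0. MOV10L1, a helicase of the piRNA pathway, had 14.3% on both days, TDRD6, a Tudor protein of germ granules, 14.8% and 15.3%, and PIWIL1, a piRNA-binding protein, 12.3% and 7.48%.

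Of the 12 imprinted genes of the plan, 4 had a measured promoter, with 10 promoters in all. Imprinted genes are expressed from 1 parental copy, and their control regions carry methylation on 1 copy only. The 5 promoters at intermediate levels on day 0 were 2 of GNAS at 47.8% and 42.0%, 1 of MEST at 50.6%, 1 of PLAGL1 at 37.6% and 1 of GRB10 at 32.1%. GNAS, which encodes a G protein alpha subunit, had 13.1% (10.6 to 16%) and 11.9% (9.54 to 14.7%) at the first and 12.9% and 10.6% at the second. Another GNAS promoter stood at 0.299% on day 0, and which transcript each GNAS promoter starts was not checked. MEST, a hydrolase family gene, went from 12.1% (8.76 to 16.4%) to 5.22% (3.01 to 8.90%). PLAGL1, a zinc finger transcription factor, went from 9.37% (7.77 to 11.3%) to 6.27% (4.99 to 7.86%), and GRB10, a growth factor receptor adaptor, had 1.97% (1.04 to 3.70%) and 3.16% (1.98 to 5.0%). The other 5 were at 1.19% or less on day 0 and stayed at 1.07% or less on both days.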

How the data were processed

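Methylation was measured by RRBS in 1 library per day, and the days used here are 6 and 7, with days 0 and 2 to set starting levels and ranges and day 1 in 1 alternative. Per the submitters' processing notes the genome build is hg19. How reads were aligned, called and checked for duplicates is not given in the sources used here. Each line of the deposited files is 1 CpG with its methylated and its total reads. A score, which the authors deposited as 1000 times the methylated share, was not used. Days 6 and 7 held 141072281 and 140040771 CpG read calls, with a median of 38 and 37 reads per listed CpG.

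CpGs were joined by position and kept at 20 or more reads on both days. Means weight CpGs or windows equally. Wilson 95% intervals are given for reads, and intervals of means and of shares left come from the counting error. Both kinds count each call as separate, so they are too narrow where CpGs share reads. For the spread over CpGs, 20 reads were drawn without replacement. Windows needed 3 or more CpGs. Promoter sequences (300 bases, 250 of them before the start) were placed where 8 or more listed CpGs fell on CpGs of the sequence, with none outside them and 3 more than at the next place. Windows were named as the 5 highest, 5 largest falls, 5 largest rises and 5 smallest changes at 30% or more. Promoters and single CpGs were named outside that rule, after their values were seen: the 12 highest with a symbol other than LOC or LINC numbers, the 5 highest of all, the 5 largest falls and rises among those over 80% on day 0, and members of the lists. The members and lists were chosen with earlier results of these data known. No test was made. Range setting, intervals and placement were run on simulated data as a check of the code only. That check does not carry over to the width of the intervals here, because several CpGs share a read and duplicate treatment is not given. For the same reason, the check is no evidence for the ranges called stable. Python 3.11.15, numpy and pandas were used.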

Additional observations from a re-analysis of the deposited data

Results flagged for a closer look

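The X chromosome was outside the comparison, and its CpGs carried residual methylation on both days. Over 69920 CpGs with 20 or more reads on both days, the mean was 16.1% on day 6 and 13.5% on day 7. Autosomal CpGs with no methylated read on day 0 gave 0.129% and 0.119% on these days. On the X chromosome, day 7 held 83.6% of the day 6 level (83.2 to 83.9%), beside 84.0% on the autosomes.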

How the results depend on the processing

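Against counting intervals this narrow, 56 of 74 alternative values moved out of the interval of the reported value, most by little. The share left on day 7 was 82.5 to 84.2% throughout: 84.2% at a minimum of 10 reads (means 13.6% and 11.4%), 83.7% at 40 reads (13.4% and 11.2%), 82.5% weighted by reads (13.65% and 11.3%) and 83.9% with the level of CpGs at 0 on day 0 subtracted (13.5% and 11.35%). With the X chromosome the means were 13.7% and 11.5%, and without the deepest 1% of CpGs the day 6 mean was 13.65%. The spread over CpGs depended on depth. With all reads, 29.5% and 19.6% of CpGs were over 20% and 33.4% and 35.6% at 5% or less on days 6 and 7; with 40 reads drawn, 26.7% were over 20% on day 6 and 36.8% and 39.5% at 5% or less. Windows over 20% were 36.1% and 18.8% at 500 bases, 38.4% and 17.6% at 5 kb, 38.8% and 21.6% with 1 or more CpGs and 29.9% and 11.5% with 10 or more, and their share left was 84.5% at 5 kb, 84.6% with 1 or more CpGs and 83.1% with 10 or more. In the range over 20 to 30% the share left was 74.75% with ranges from all day 6 reads, 102% from all day 7 reads, 85.1% from a part of the day 7 reads and 85.2% from day 2, where the first 2 settings use the same reads for range and level. CpGs at 90% or more on day 0 had 83.7% left. No paired analysis was possible because each day has 1 library. Depth limits single CpGs most: 0 of 20 reads allows a level of up to 15%.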

Other observations

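Chromosomes lost alike. The share left lay between 83.1% and 84.6% on the 22 autosomes, with chromosome 18 lowest at 83.1% (82.7 to 83.5%), chromosome 13 next at 83.7% and chromosome 15 highest at 84.6% (84.2 to 84.9%). Among CpGs at 80% or more on day 0, chromosome 18 had 82.0% left (81.6 to 82.5%), from 21.6% to 17.7%, and the other 21 had 83.3 to 84.2%. With 1 library per day, no replicate spread is available to set beside that gap.

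Deep CpGs had lower levels on both days. Among CpGs at 80% or more on day 0, those with 20 to 30 reads on the shallower day averaged 22.4% and 18.8%, with 84.0% left, and the 10518 with over 150 reads averaged 19.7% and 16.2%, with 82.1% left. Their day 0 levels were 89.1% and 87.4%.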
